A study of Mus musculus with 4 samples.

Results

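The Ebf genes of the mouse, Ebf1, Ebf2, Ebf3 and Ebf4, were followed in F9 cells with and without an shRNA against Phf19. All probe sets whose platform gene symbol was exactly Ebf1, Ebf2, Ebf3 or Ebf4 were taken, which gave 12 of the 45101 probe sets on the array. Ebf1 had 5 of them, Ebf2 had 3, Ebf3 had 3 and Ebf4 had 1. No probe set was listed with an Ebf gene and a second gene. The probe sets were picked by symbol alone, but the family was chosen by its measured difference between the groups in these same 4 arrays. Its values in that comparison are therefore given as a description, and the intervals and calls printed for them come from the fit of all probe sets and are not evidence that the family changed.

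F9 is a mouse embryonal carcinoma line, a tumour-derived culture that resembles early embryonic cells. The shPhf19 cells carried a pLKO.1 lentivirus with a short hairpin RNA against Phf19, and the shVector cells carried the pLKO.1 vector control. Both groups came from the same line and had been selected with puromycin after infection. Total RNA of 2 biological replicates per group was hybridised to Affymetrix mouse 430 2.0 arrays. The submitters speak of 2 cell lines per group, and neither the number of hairpins nor separate infections are stated. A difference in an array of whole cultures cannot tell more RNA per cell from more cells of a kind that expresses the gene.

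EBF proteins (early B cell factors, also called O/E or COE factors) are DNA-binding transcription factors that act as dimers on a palindromic site. Ebf1 is known as a factor that commits progenitors to the B lymphocyte lineage, and it also acts in fat cells, stroma and neurons. Ebf2 acts in brown fat, bone and migrating neurons, Ebf3 in neurons and muscle, and Ebf4 is the least studied of the family. Phf19 is a Polycomb-like gene. Its product is an accessory subunit of the complex PRC2, which places a repressive methyl mark on histone H3, and proteins of this kind bind DNA rich in unmethylated CpG.

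The knockdown and the arrays were checked in the same table. Phf19 probe set 1427920_at had log2 signals of 5.08 and 5.17 in shPhf19 cells, against 6.07 and 6.14 in shVector cells, which left 50.7% of the control signal (limma adjusted p = 0.0108). Its other and brighter probe set, 1431857_at, read 6.05 and 6.26 in shPhf19 cells, against 6.32 and 6.11 in shVector cells. It stood at 96.2% of the control signal and was not called (limma adjusted p = 0.928). The shVector mean of 1427920_at, 6.11, was itself below 6.16, the 95th percentile of the gene families taken as silent further on. The percentage left by that probe set is therefore uncertain, and the 2 probe sets differ on the knockdown. The array medians were 5.75 to 5.76, and arrays correlated at 0.9984 within shPhf19, 0.9974 within shVector and 0.9961 to 0.997 between groups. The difference of 3′ and 5′ beta-actin signal, which reflects RNA integrity, was 0.92 and 1.03 in shPhf19 cells, against 1.16 and 0.83 in shVector cells. It was highest in shVector replicate 1.

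The start regions of the Ebf genes are shown because CpG content is the sequence feature tied to Polycomb-like proteins. The arrays did not measure binding or methylation there. RefSeq windows of assembly GRCm38.p6, from 250 bases before a transcript start to 50 after it, matched 3 of the 4 genes, with 2 windows for Ebf1. Each is printed 5′ to 3′ on the strand of the gene, and the capitals mark CpG dinucleotides. The windows are chr11:44617850-44618149 (Ebf1 upstream start, plus strand), chr11:44619978-44620277 (Ebf1 downstream start, plus strand), chr7:137314396-137314695 (Ebf3, minus strand) and chr2:130295689-130295988 (Ebf4, plus strand).
Ebf1 upstream start: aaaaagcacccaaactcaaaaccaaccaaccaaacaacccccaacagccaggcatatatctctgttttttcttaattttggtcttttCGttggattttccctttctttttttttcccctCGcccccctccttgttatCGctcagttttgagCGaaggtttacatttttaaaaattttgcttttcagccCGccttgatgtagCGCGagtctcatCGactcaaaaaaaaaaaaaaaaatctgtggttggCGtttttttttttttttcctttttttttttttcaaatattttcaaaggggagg
Ebf1 downstream start: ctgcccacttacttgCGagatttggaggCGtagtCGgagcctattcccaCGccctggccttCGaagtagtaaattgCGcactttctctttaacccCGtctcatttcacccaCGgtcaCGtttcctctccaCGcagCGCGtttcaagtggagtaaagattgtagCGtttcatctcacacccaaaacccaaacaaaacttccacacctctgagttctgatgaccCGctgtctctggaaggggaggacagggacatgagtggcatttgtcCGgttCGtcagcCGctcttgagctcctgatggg
Ebf3: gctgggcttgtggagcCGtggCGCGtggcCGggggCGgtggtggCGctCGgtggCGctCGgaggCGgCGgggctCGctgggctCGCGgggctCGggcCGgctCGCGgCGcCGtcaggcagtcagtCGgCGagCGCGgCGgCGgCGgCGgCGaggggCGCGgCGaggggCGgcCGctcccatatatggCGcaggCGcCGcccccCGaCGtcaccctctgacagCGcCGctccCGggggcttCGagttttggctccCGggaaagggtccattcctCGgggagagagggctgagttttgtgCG
Ebf4: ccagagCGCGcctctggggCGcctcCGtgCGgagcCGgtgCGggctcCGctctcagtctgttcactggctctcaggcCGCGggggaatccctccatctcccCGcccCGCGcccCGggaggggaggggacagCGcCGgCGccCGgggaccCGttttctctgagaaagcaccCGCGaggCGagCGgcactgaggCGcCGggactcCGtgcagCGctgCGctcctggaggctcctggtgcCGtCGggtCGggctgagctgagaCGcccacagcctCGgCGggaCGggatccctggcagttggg

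The upstream Ebf1 window was rich in A and T, with a GC content of 36.7% and 9 CpG dinucleotides. The downstream Ebf1 window had a GC content of 53.0% and 17 CpG. The Ebf3 window reached 77.0% GC with 46 CpG, and the Ebf4 window 74.3% with 35. Over all 32851 windows of this length the median GC content was 52.7% and the median CpG count 7. Of those windows, 98.4% had fewer CpG than Ebf3 and 93.0% fewer than Ebf4, against 54.2% and 68.6% for the upstream and downstream Ebf1 windows. Counts of CpG rise with GC content. Relative to the number expected from the C and G of each window, CpG stood at 0.95 and 0.82 in these Ebf1 windows. The same ratio was 1.08 in Ebf3 and 0.85 in Ebf4. The core of the site that EBF dimers bind, CCCNNGGG, reads the same on both strands and was the only motif searched. It occurred once in these 4 windows, in Ebf3, starting 21 bases before the transcript start, and 13.7% of all windows held it. The absence of these letters from the Ebf1 and Ebf4 windows says nothing of EBF binding there.

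By 4 of its 5 probe sets, Ebf1 signal was higher in shPhf19 cells, and by the fifth it was not. Levels are log2 signal throughout. Probe set 1416301_a_at read 8.80 and 8.82 in shPhf19 cells, against 7.78 and 7.18 in shVector cells. Both shPhf19 arrays were above both shVector arrays, by 1.01 at the closest, and the shVector arrays lay 0.61 apart. The group means were 8.81 ± 0.02 in shPhf19 and 7.48 ± 0.43 in shVector (SD, n = 2 each). The difference of 1.33 ± 0.19 (SE of the limma fit over all probe sets) corresponds to 2.51-fold, with a 95% interval of 1.84-fold to 3.42-fold.

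Probe set 1416302_at of Ebf1 read 8.45 and 8.33 in shPhf19 cells, against 7.59 and 7.23 in shVector cells. Its groups did not overlap either, and its difference of 0.98 ± 0.13 (1.97-fold) was the smallest of the 4. Probe set 1439789_at read 7.63 and 7.57 in shPhf19 cells, against 6.50 and 6.32 in shVector cells (difference 1.19 ± 0.10, 2.28-fold). Probe set 1448293_at read 7.60 and 7.56 in shPhf19 cells, against 6.41 and 6.23 in shVector cells (1.26 ± 0.10, 2.39-fold). In all 4, shVector replicate 1 was above shVector replicate 2, by 0.17 to 0.61, whereas the shPhf19 arrays lay 0.02 to 0.12 apart. shVector replicate 1 also had the highest 3′ to 5′ difference of beta-actin, whose part in this spread was not tested. The median over the 4 was 2.33-fold. These probe sets are not independent readings: 3 of them (1416301_a_at, 1416302_at and 1448293_at) were designed on the same source sequence, and all share the 4 RNA samples.

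The fifth Ebf1 probe set, 1457441_at, stood apart from the others. It read 3.64 and 3.71 in shPhf19 cells, against 3.62 and 3.69 in shVector cells, and its groups overlapped. Its difference was 0.02 ± 0.09, and the 95% interval from -0.20 to 0.24 lies below those of the other 4. The platform table lists no source sequence for this probe set, and which part of the transcript it covers was not analysed here.

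**Figure D1:**
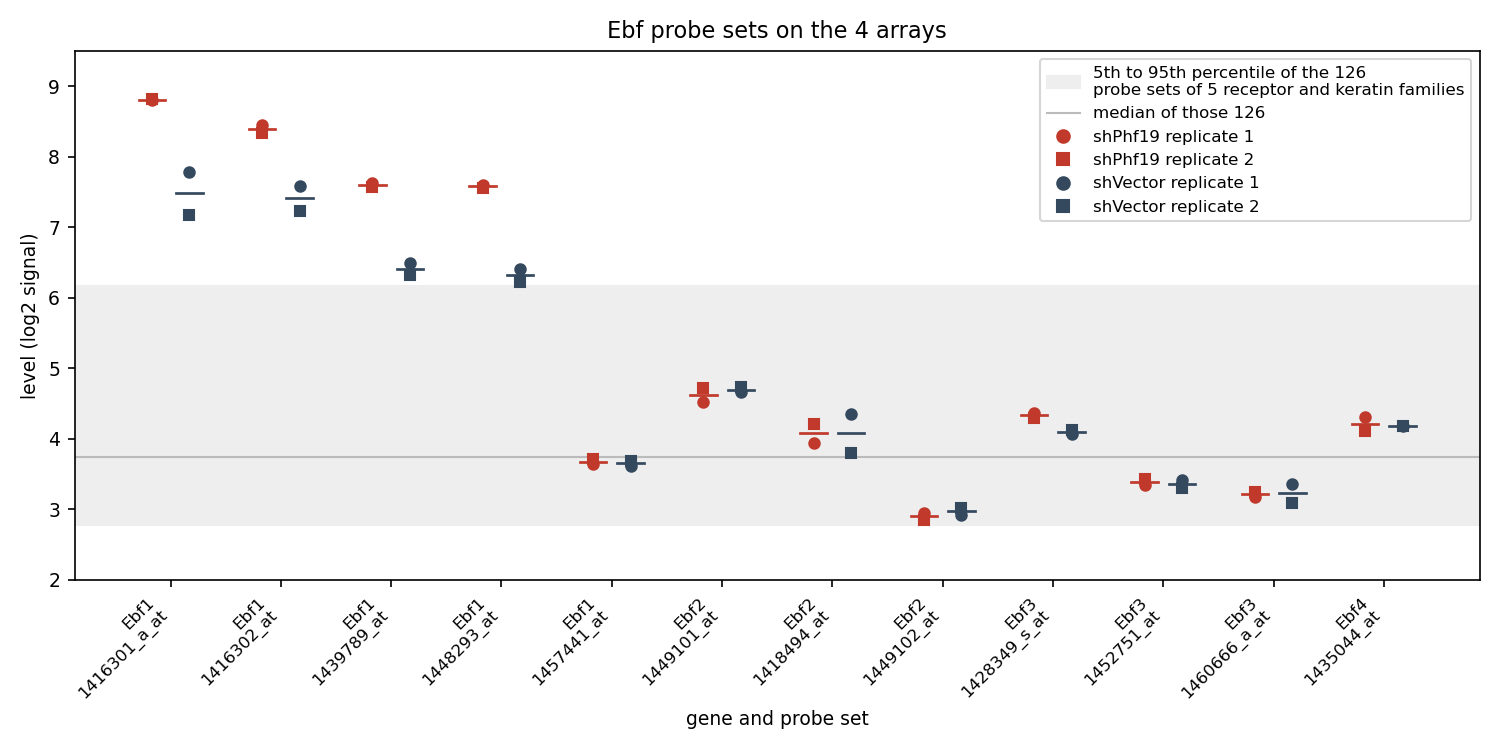
Level (log2 signal, vertical axis) of each of the 12 Ebf probe sets on the 4 arrays, with shPhf19 in red and shVector in dark blue; points are arrays, short lines are group means, and the grey band is the 5th to 95th percentile (2.78 to 6.16) of 126 probe sets of gene families taken as silent. Only 4 Ebf1 probe sets lie above the band, and their shPhf19 arrays are at 7.56 to 8.82, against 6.23 to 7.78 in shVector.

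Ebf2 showed no separation of the groups by any of its 3 probe sets. The brightest, 1449101_at, read 4.52 and 4.72 in shPhf19 cells, against 4.66 and 4.73 in shVector cells, a difference of -0.07 ± 0.11. Probe set 1418494_at read 3.94 and 4.21 in shPhf19 cells, against 4.36 and 3.80 in shVector cells. Its shVector arrays enclosed both shPhf19 arrays, and the difference was 0.00 ± 0.19. Probe set 1449102_at read 2.95 and 2.86 in shPhf19 cells, against 2.92 and 3.02 in shVector cells (difference -0.07 ± 0.09). The 95% interval of 1449101_at ran from -0.33 to 0.19, that of 1449102_at from -0.29 to 0.15, and that of 1418494_at, the widest, from -0.47 to 0.46.

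Ebf3 had 1 probe set with a small separation. Probe set 1428349_s_at read 4.37 and 4.30 in shPhf19 cells, against 4.07 and 4.12 in shVector cells. Both shPhf19 arrays were above both shVector arrays by at least 0.18, and the difference was 0.24 ± 0.09 (1.18-fold, 95% interval 1.01-fold to 1.38-fold). The s in its name marks a probe set that may also bind similar transcripts of other genes. Probe set 1452751_at, designed on the same source sequence, read 3.35 and 3.44 in shPhf19 cells, against 3.42 and 3.31 in shVector cells. Probe set 1460666_a_at read 3.18 and 3.25 in shPhf19 cells, against 3.37 and 3.09 in shVector cells. In both of these the groups overlapped, with differences of 0.03 ± 0.09 and -0.01 ± 0.12.

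Ebf4 was measured by a single probe set, 1435044_at. It read 4.31 and 4.12 in shPhf19 cells, against 4.18 and 4.18 in shVector cells. The deposited values of the shVector arrays were identical, and they lay between the shPhf19 arrays. The difference was 0.03 ± 0.10, with a 95% interval from -0.22 to 0.28.

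**Figure D2:**
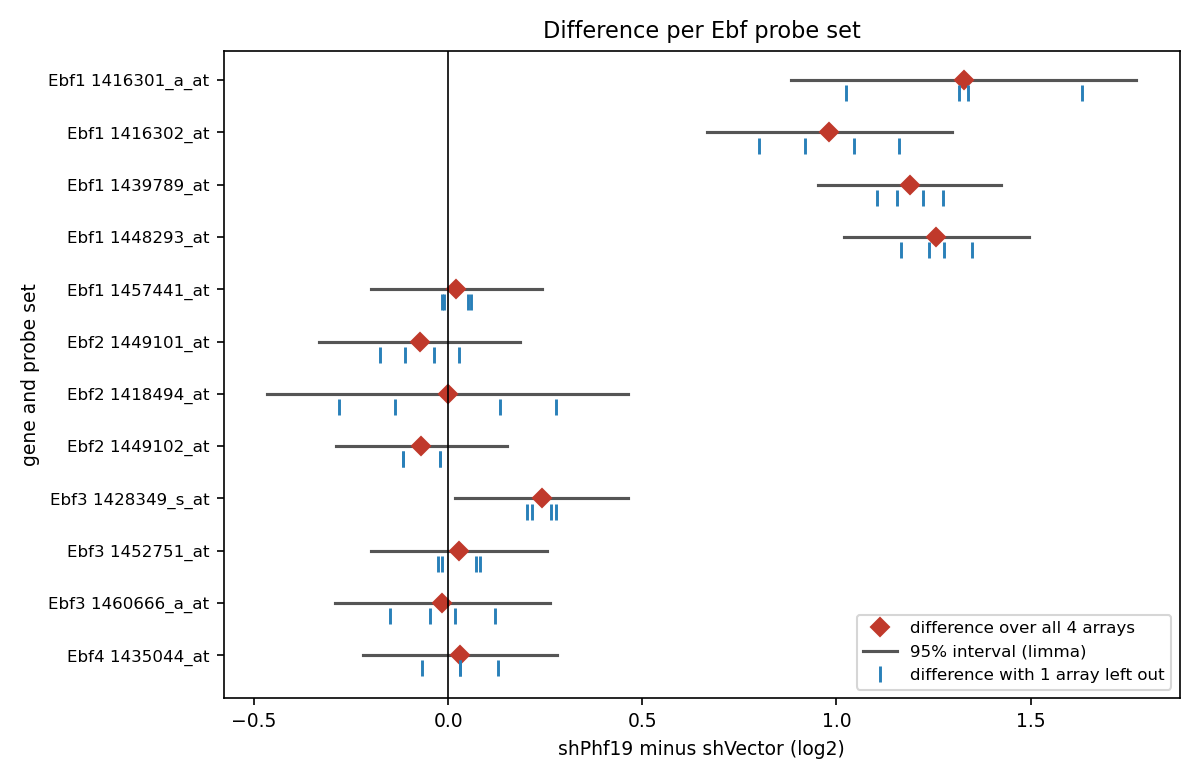
Difference between groups (shPhf19 minus shVector, log2, horizontal axis) for each of the 12 Ebf probe sets, as diamonds with 95% intervals from the limma fit; blue ticks give the difference with 1 array left out. The 4 Ebf1 probe sets lie at 0.98 to 1.33 and the other 8 at -0.07 to 0.24.

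Across the family, 4 of 12 probe sets were called higher (adjusted p under 0.05 in limma, by Benjamini-Hochberg over the 45037 tested) and none lower, and all 4 were of Ebf1. Of all probe sets tested, 0.830% were called higher. In 5 of 12 both shPhf19 arrays were above both shVector arrays, which was so for 19.4% of all probe sets, and in 0 were both below. Since the family was chosen with this comparison in view, nothing is read from these counts. In order of difference from the highest, the 4 Ebf1 probe sets were numbers 23, 27, 39 and 88 of 45037, and by its brightest probe set Ebf1 was number 16 of 18193 genes. The brightest probe sets of Ebf3, Ebf4 and Ebf2 were numbers 1251, 7026 and 12999. The calls of Ebf1 needed all 4 arrays, and so did every other call among the probe sets tested, so this is not particular to Ebf1. The differences themselves moved less. That of 1416301_a_at was 1.34 and 1.32 without shPhf19 replicate 1 and 2, 1.63 without shVector replicate 1 and 1.02 without shVector replicate 2. Over the 4 probe sets and the 4 omissions the difference ran from 0.80 to 1.63.

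**Figure D3:**
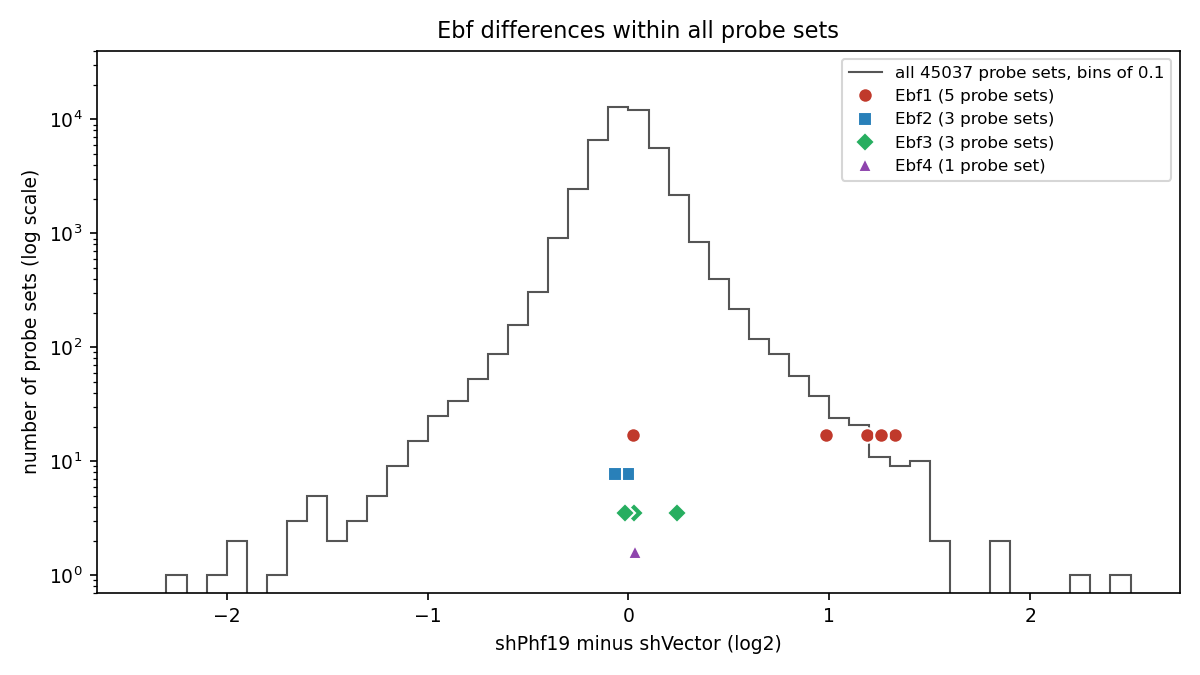
Number of probe sets (log scale, vertical axis) by difference between groups (shPhf19 minus shVector, log2) in bins of 0.1, for all 45037 probe sets tested, with the Ebf probe sets marked at arbitrary heights (2 of Ebf2 overlap at -0.07). The 4 Ebf1 probe sets at 0.98 to 1.33 lie in the right tail, while the other 8 are within -0.07 to 0.24.

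The dim Ebf probe sets lay in the range of genes taken as silent. The table has no detection calls, so levels were set against 126 probe sets of odorant, vomeronasal and taste receptor genes and of keratin-associated protein genes (symbols starting Olfr, Vmn1r, Vmn2r, Tas2r or Krtap), which embryonal carcinoma cells are not known to use. Their median was 3.75 and their 95th percentile 6.16. The 4 Ebf1 probe sets averaged 6.95 to 8.14 over the arrays. By these means, which include the shPhf19 arrays, none of the 126 was as bright as 1416301_a_at and 1416302_at, and 3 were as bright as 1439789_at and 1448293_at. In shVector cells alone the 4 probe sets already stood at 6.32 to 7.48, above the 95th percentile. The brightest of the 126 read 7.70 and 7.50 in shVector replicates 1 and 2. There 1416301_a_at read 7.78 and 7.18, and 1416302_at read 7.59 and 7.23. The other 8 Ebf probe sets averaged 2.94 to 4.66, at the 13.5th to 79.4th percentile of the 126. Probe sets differ in how strongly they bind, so no order of abundance among the 4 genes is read from these levels. A change in a transcript that gives no signal above this background would not be detectable.

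The array profiles nearest to those of Ebf1 were found over the 4 arrays, each profile centred on its own mean, as the Euclidean distance in log2 units. This is a description over 4 values that includes the group difference, and many probe sets with a like difference lie close. For 1416301_a_at the nearest genes were Zfhx3, a transcription factor with zinc fingers and homeodomains (distance 0.140), Dtna, which encodes alpha-dystrobrevin (0.224), and Grip1, a scaffold of glutamate receptors (0.264). The Zfhx3 probe set read 7.23 and 7.35 in shPhf19 cells, against 6.25 and 5.79 in shVector cells. All 3 were nearer to it than any other Ebf1 probe set was (0.312). For 1416302_at they were Elobl (0.079), Cacna1b, a calcium channel subunit (0.084), and Hdgfl3 (0.102), against 0.25 for the nearest Ebf1 probe set. For 1439789_at they were Igdcc4, an immunoglobulin superfamily gene (0.025), Prps2 of nucleotide synthesis (0.037) and Zfhx3 by a second probe set (0.108). For 1448293_at they were Igdcc4 (0.063), Zfhx3 (0.080) and Car14, a carbonic anhydrase (0.084). The pair 1439789_at and 1448293_at lay 0.072 from each other, although they come from different source sequences.

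Among genes for proteins that act with or against EBF factors, Id2 was called higher and Id4 lower. Of 18 measured genes for partners of EBF proteins, or for the E proteins that act with them and their Id inhibitors, 1 rose, 1 fell and 16 did not pass the test. By their brightest probe sets, 1.15% of all 18193 genes rose and 0.863% fell. Id2, an inhibitor of E proteins, read 10.65 and 10.63 in shPhf19 cells, against 9.69 and 9.81 in shVector cells (1.85-fold, limma adjusted p = 0.00775). Its other 2 probe sets were at 0.39 and 0.79, and 1 of them was called. Id4, of the same family, read 7.64 and 7.50 in shPhf19 cells, against 8.59 and 8.95 in shVector cells, and fell by 1.20 on the log2 scale (adjusted p = 0.0153), as did its other 2 probe sets. Neither gene's groups overlapped. Of the 18 genes, 7 were above 0 and 11 below. Values of the next genes were picked after they were seen. Id3 read 7.92 and 7.83 in shPhf19 cells, against 8.37 and 8.95 in shVector cells. Its difference of -0.78 ± 0.18 did not pass (limma adjusted p = 0.125). Id1 and Prdm16 were at -0.01 ± 0.12 and -0.27 ± 0.11 and did not pass. Zfp423 and Zfp521, zinc finger genes whose proteins bind EBF1 and restrain it, were at 0.24 ± 0.09 and -0.18 ± 0.15. The E protein genes Tcf3, Tcf4 and Tcf12 were at 0.15 ± 0.07, 0.15 ± 0.07 and -0.32 ± 0.06 and did not pass. The median of the list was -0.01, against 0.00 over all genes.

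Genes on which EBF factors are known to act in B cells and olfactory neurons gave no call. Of 12 measured B-lineage genes limma called none in either direction, and 1 had an unadjusted p under 0.05: Cd79b, a subunit of the B cell receptor, at -0.30 ± 0.12 (adjusted p = 0.352). In the same fit 5708 of all 45037 probe sets had an unadjusted p under 0.05, and counts of this kind are to be set against that share. Foxo1 was at -0.14 ± 0.10. Cd79a, an established target of EBF1 in B cells, read 4.94 and 4.94 in shPhf19 cells, against 5.28 and 4.94 in shVector cells (named afterwards). Of these 12 genes, 9 had a level below the 95th percentile of the silent families, and the list's median difference was -0.03. Of 7 olfactory neuron genes none was called, with 1 at an unadjusted p under 0.05: Gng13, a G protein subunit of sensory cells, at -0.42 ± 0.09 (adjusted p = 0.108). The other probe set of Gng13 was at -0.08. Gnal, which encodes the olfactory G protein alpha subunit, was at 0.14 ± 0.11, and the median was -0.03. Of the 7 olfactory genes, 5 were below the same percentile in mean level, Gng13 and Gnal among them.

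In the adipocyte list 1 of 10 genes fell and none rose. Cebpb, a transcription factor of early fat cell differentiation and of stress responses, read 10.09 and 10.17 in shPhf19 cells, against 10.77 and 10.83 in shVector cells (fell by 0.67, adjusted p = 0.0107), with its other probe set also called. Named afterwards, Adipoq was at -0.79 ± 0.13 (limma adjusted p = 0.05015) and Cebpd at 0.36 ± 0.09 (adjusted p = 0.153), and neither passed. In this list 4 genes were above 0 and 6 below, and the median was -0.07. Of 14 osteoblast and marrow stroma genes 1 rose: Pdgfra, a growth factor receptor of mesenchyme and of primitive endoderm, at 6.89 and 6.72 in shPhf19 cells, against 5.42 and 5.84 in shVector cells (2.26-fold, adjusted p = 0.0238). Its other 2 probe sets, at 0.13 and 0.46, were not called. The list's median was -0.03. Among 7 skeletal muscle genes limma called none and 2 had an unadjusted p under 0.05, the calcium channel gene Ryr1 at 0.56 ± 0.12 (adjusted p = 0.0968) and the sarcomere gene Ttn at 0.36 ± 0.12 (adjusted p = 0.279). The other probe set of Ryr1 was at 0.07, and the other 5 of Ttn ran from -0.28 to 0.22. The median of the muscle list was 0.06, and 6 of the 7 genes, Ryr1 among them, were below that percentile.

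Among 25 proneural and early neuron genes, 2 rose, 2 fell and 21 did not pass. Proneural factors start neuronal differentiation, and in Xenopus Ebf genes act with them and downstream of them. Insm1, a zinc finger gene of newborn neurons and endocrine cells, read 6.40 and 6.01 in shPhf19 cells, against 4.30 and 4.48 in shVector cells (3.52-fold, adjusted p = 0.00782). Neurod1, a proneural factor, read 5.82 and 5.85 in shPhf19 cells, against 4.22 and 4.58 in shVector cells (2.70-fold, adjusted p = 0.00991). Both had a second probe set that was called higher. The groups of both were apart, and 19.4% of all probe sets had both shPhf19 arrays above both shVector arrays. In mean level Insm1 and Neurod1 were below the 95th percentile of the silent families, whereas the 4 called Ebf1 probe sets were above it. Tubb3 and Stmn2, which encode a tubulin and a microtubule regulator of neurons, fell by 0.54 and 0.34 (adjusted p = 0.0422 and 0.0393). By these probe sets both lost the call without an intensity trend in the variance. With the trend, the other probe set of Stmn2, at -0.68, was also called, and Tubb3 had no other. The list's median was -0.04, and 15 of the 25 genes were below the 95th percentile of the silent families.

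EBF proteins share the IPT/TIG fold with the NF-kappaB, NFAT, CAMTA and RBPJ factors. Of 13 such genes measured, 1 fell and none rose. Camta1, a calmodulin-binding factor, read 8.63 and 8.56 in shPhf19 cells, against 9.59 and 9.80 in shVector cells (fell by 1.10, adjusted p = 0.00788). Of its other 3 probe sets 1 was also called, and they ran from -1.19 to 0.22. The median of these 13 genes was -0.05.

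Markers of the cell types that such a culture could hold were read in the same fit. All 12 markers of undifferentiated F9 cells were bright, at 10.33 to 14.29, and none was called. In limma 5 had an unadjusted p under 0.05, against 5708 of 45037 over all probe sets. Of those 5, 3 were above 0 and 2 below, and the list's median was 0.01. The smallest p-values were those of Nanog at -0.26 ± 0.05 (adjusted p = 0.0923) and Klf4 at -0.22 ± 0.05 (adjusted p = 0.114). Named afterwards, those above 0 were Dppa4 at 0.25 ± 0.06, Sall4 at 0.17 ± 0.05 and Utf1 at 0.15 ± 0.06. Of 16 endoderm markers 6 were called higher and none lower. Their summed level was 112.7 and 113.2 in shPhf19 cells, against 104.3 and 104.5 in shVector cells. By difference, 11 of the 16 were above 0 and 5 below. In mean level 8 of the 16 were below the 95th percentile of the silent families. Among these were Afp and Thbd, not called, and Dab2 and Gata6, both called. The 4 named by their folds were the receptor gene Cubn (4.91-fold, adjusted p = 0.00147), the adaptor gene Dab2 (2.64-fold, 0.00863), the transcription factor gene Gata6 (2.28-fold, 0.0149) and the collagen gene Col4a1 (2.06-fold, 0.00775). The dimmer probe sets of Dab2 and Gata6 were not called. Whether the endoderm genes had a part in the difference of Ebf1 was not tested.

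Markers of blood cells and fibroblasts mostly gave little signal. Of 8 blood cell markers 7 were below the 95th percentile of the silent families in their mean level, the exception being Kit, which germ cells also use. None was called, and 1 had an unadjusted p under 0.05 in limma. Their summed level was 42.2 to 42.6 in shPhf19 cells, against 43.0 in both shVector arrays. Kit was at -0.24 ± 0.10 (adjusted p = 0.389). Ptprc, the leukocyte antigen CD45, read 3.23 and 3.11 in shPhf19 cells, against 3.33 and 3.29 in shVector cells. All 9 fibroblast markers were below that percentile in mean level, and their summed level was 41.8 to 41.9 in shPhf19 cells, against 42.8 to 43.0 in shVector cells. None was called, with 2 at an unadjusted p under 0.05 (Thy1 0.46 ± 0.12, adjusted p = 0.169; Pdgfrb -0.68 ± 0.14, adjusted p = 0.0923).

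**Figure D4:**
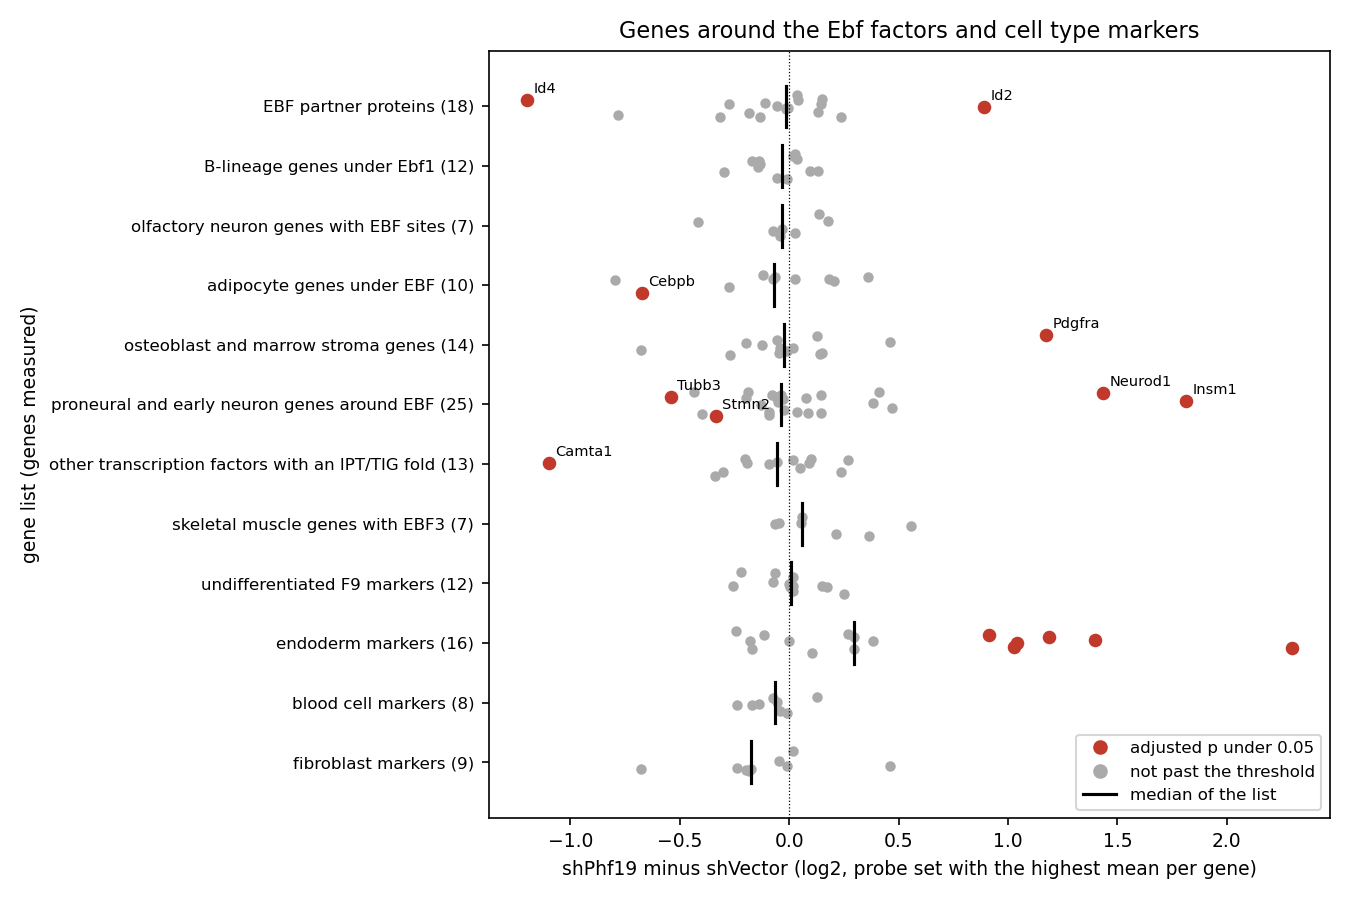
Difference between groups (shPhf19 minus shVector, log2, horizontal axis) for the genes of 12 lists, each gene by its brightest probe set; red points had an adjusted p under 0.05, grey points did not, and black bars are list medians. The medians of 11 lists lie between -0.17 and 0.06, and that of the endoderm markers at 0.30.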

How the data were processed

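Total RNA of F9 cells was measured on 4 arrays. The authors' deposited table holds 1 value per probe set and array, taken as log2 from its range of 2.31 to 14.7. The medians nearly coincide, so arrays were normalized before deposit; the software and the way probes were summarised are not stated in the labels. Genes were named by GEO's platform annotation, and the gene numbers of the Ebf genes carried the same symbols in a RefSeq table. Of 45101 probe sets, 64 controls were left out and 45037 tested with limma 3.58.1 in R 4.3.3 (intensity trend, shPhf19 minus shVector, two-sided, Benjamini-Hochberg, threshold 0.05). Residual degrees of freedom were 2 (median 6.51 after moderation). The test was checked on simulated data. P-values reflect only how far these arrays spread, which may be technical, and the number of arrays limits precision.

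A gene in a list is represented by its probe set with the highest mean. The 12 lists hold 153 genes, of which 11 were not analysed here for want of a single-gene probe set. Members and lists were chosen with earlier results of these data known. Named genes are all Ebf probe sets, Phf19, up to 4 called genes per list and direction or else the 2 with the smallest p, and the 3 nearest profiles of Ebf probe sets whose groups were apart by at least 0.5 between means; others are said to be picked afterwards. Alternatives were the variance trend, quantile normalization, median centring, filters on dim probe sets, a replicate block, single omitted arrays, and any probe set of a gene.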

Additional observations from a re-analysis of the deposited data

How the results depend on the processing

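The difference of each Ebf1 probe set that was called stayed between 0.97 and 1.33 with median centring, quantile normalization, no variance trend, filters on dim probe sets and a replicate block, and between 0.80 and 1.63 with 1 array left out. With 1 array left out, the sign turned for 6 of the 8 dim Ebf probe sets. Ebf2 probe set 1418494_at ran from -0.28 to 0.28, 1449101_at from -0.17 to 0.03, Ebf3 probe set 1460666_a_at from -0.15 to 0.12 and that of Ebf4 from -0.0667 to 0.1281. Phf19 probe set 1431857_at, not called, turned to 0.05 without shPhf19 replicate 1 (0.0471) and without shVector replicate 1 (0.0515), with a lowest value of -0.1641. Calls were less stable than values. With any 1 array left out, 0 Ebf probe sets, 0 of all probe sets and 0 list genes were called in either direction (lowest and highest both 0), with 2539 to 6942 probe sets at an unadjusted p under 0.05 in limma, against 5708 with all arrays. Each such fit rests on the spread of the other group and assumes that the lone array varies like it. Without an intensity trend 229 probe sets were called higher and 151 lower, against 374 and 262, 3 list genes were lower against 5, and 3 of 12 Ebf probe sets were called against 4. No label says that a replicate number marks a shared day, and deviations of same-numbered arrays correlated at -0.197. With a replicate block 0 probe sets, 0 Ebf probe sets and 0 list genes were called in either direction, with 3890 probe sets at an unadjusted p under 0.05. Blocked with crossed numbers, an alternative chosen after seeing the data, 337 were higher and 259 lower, 3 of them Ebf probe sets. Of the 13 list genes named as called, 13 kept the call with quantile normalization, median centring, the 25% filter and the crossed block, and 11 without the trend, which lost Tubb3 and Stmn2. Without the lowest 50% of probe sets 11 of 13 were tested and 11 called, with Insm1 and Neurod1 filtered out. Only 4 of the 12 Ebf probe sets were tested in that setting. Why calls moved was not tested. No detection calls are given, so signal over background limits what the 8 dim Ebf probe sets can show.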
